A study of Mus musculus with 33 samples.

Results

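Cone and rod inducing culture were compared at day 21 in mouse retinal progenitor cells, the dividing cells of the embryonic retina. The comparison takes 6 of the 33 RNA sequencing libraries of the study, chosen by their titles: 3 labelled as cone induction and 3 as rod induction at day 21. All cells came from embryonic day 14 retina of C57BL/6J mice with no other genotype named. The cone group received COCO protein and the rod group received taurine with retinoic acid. These factors differed together between the groups, so their effects cannot be told apart. The other libraries are untreated, cone primed and rod primed cells at day 0 and both inductions at days 5, 12 and 35, with 3 libraries in each of 11 groups. The study's title concerns the transcription factor Sox15 and the choice between cone and rod fates. The labels do not say whether the libraries of a group came from separate litters or cultures. P-values set a difference against the spread within groups over all 33 libraries, and that spread may be technical. How long each factor stayed in the medium is not given in the sources used here.

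Retinoic acid enters the nucleus, binds its receptors on DNA and switches on genes that include its own receptor Rarb and the Cyp26 enzymes that break it down. COCO is a protein that cells release and that blocks ligands of the BMP, TGF-beta and Wnt families. Rods and cones arise from a shared precursor that expresses Otx2 and Crx, after which Nrl and Nr2e3 set the rod program and Thrb and Rxrg belong to the cone program. Retinoic acid also has a place in dorsoventral patterning of the eye, where Tbx2, Tbx3 and Tbx5 mark the dorsal side and Vax1 and Vax2 the ventral side.

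The promoters of Cyp26a1 and Rarb are shown first because both genes had an adjusted p of 1.03e-07 between the conditions. Capitals mark a DR5 retinoic acid response element, a pair of half-sites with 5 bases between them, on either strand. A half-site could read AGGTCA. It could also read AGTTCA. The forms with G in place of the leading A were counted too. Sequences are from RefSeq on GRCm38.p6, 5′ to 3′ on the gene's own strand, upstream of the annotated start. For Rarb this is a start inside the gene.
Cyp26a1, chr19:37697751-37697807, plus strand: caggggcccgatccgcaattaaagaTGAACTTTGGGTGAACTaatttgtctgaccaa
Rarb, chr14:16575488-16575554, minus strand: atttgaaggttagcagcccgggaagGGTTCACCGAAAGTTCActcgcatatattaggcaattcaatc
In the 250 bases before a start, a DR5 element was found in 28 of 27025 genes with a promoter sequence (0.104%). Of the 18 genes on a list of retinoic acid response genes, 12 had a promoter sequence, and Cyp26a1 and Rarb were the 2 with a match. Of these 12 genes, 5 were called. A DR2 element, with 2 bases between the half-sites, was found in 0 of the 12 and in 0.204% of all genes. A match is a description of the letters and not evidence of binding.

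The 6 libraries held 9395265 to 16432842 counts in genes, and 20587 to 23195 genes had a count. Where a gene had no count, up to 3 counts could have been missed, a floor of 0.196 to 0.394 CPM (counts scaled to library size). Floors cover counting error only, since reads carried no molecular identifiers. Cone replicate 1 stood apart. It had the fewest counts, and genes annotated over ribosomal RNA sequence took 24.5% of its gene counts against 13.3% to 17.8% in the other 5. Its log2 CPM correlated with the other cone libraries at 0.959 and 0.964, while those correlated with each other at 0.982. Cone replicate 1 correlated with rod replicates 1 to 3 at 0.957, 0.935 and 0.949. Retinal identity was present in all 6 libraries. Pax6, an eye field factor, lay between 359 and 599 CPM. The cone opsin and cone arrestin transcripts were at or near the floor in both groups.

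At day 21 the 2 conditions differed in 1633 of 18150 genes tested (9.00%) at an adjusted p under 0.05. Of these, 1063 genes were higher in cone libraries (5.86% of those tested) and 570 were lower (3.14%). A fold of 2 or more was reached by 723 of the higher and 250 of the lower genes. The median log2 fold change over all tested genes was 0.03. Protein-coding genes were called in 10.6% of 14192 tested, and long noncoding genes in 4.29% of 1397. In 4481 genes (24.7%) the 3 cone libraries and the 3 rod libraries did not overlap. The fit shared its spread among all 33 libraries, and leaving out 1 of the 6 left between 952 calls (without rod replicate 3) and 1485 (without rod replicate 1). It gave 959 without rod replicate 2.

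**Figure D1:**
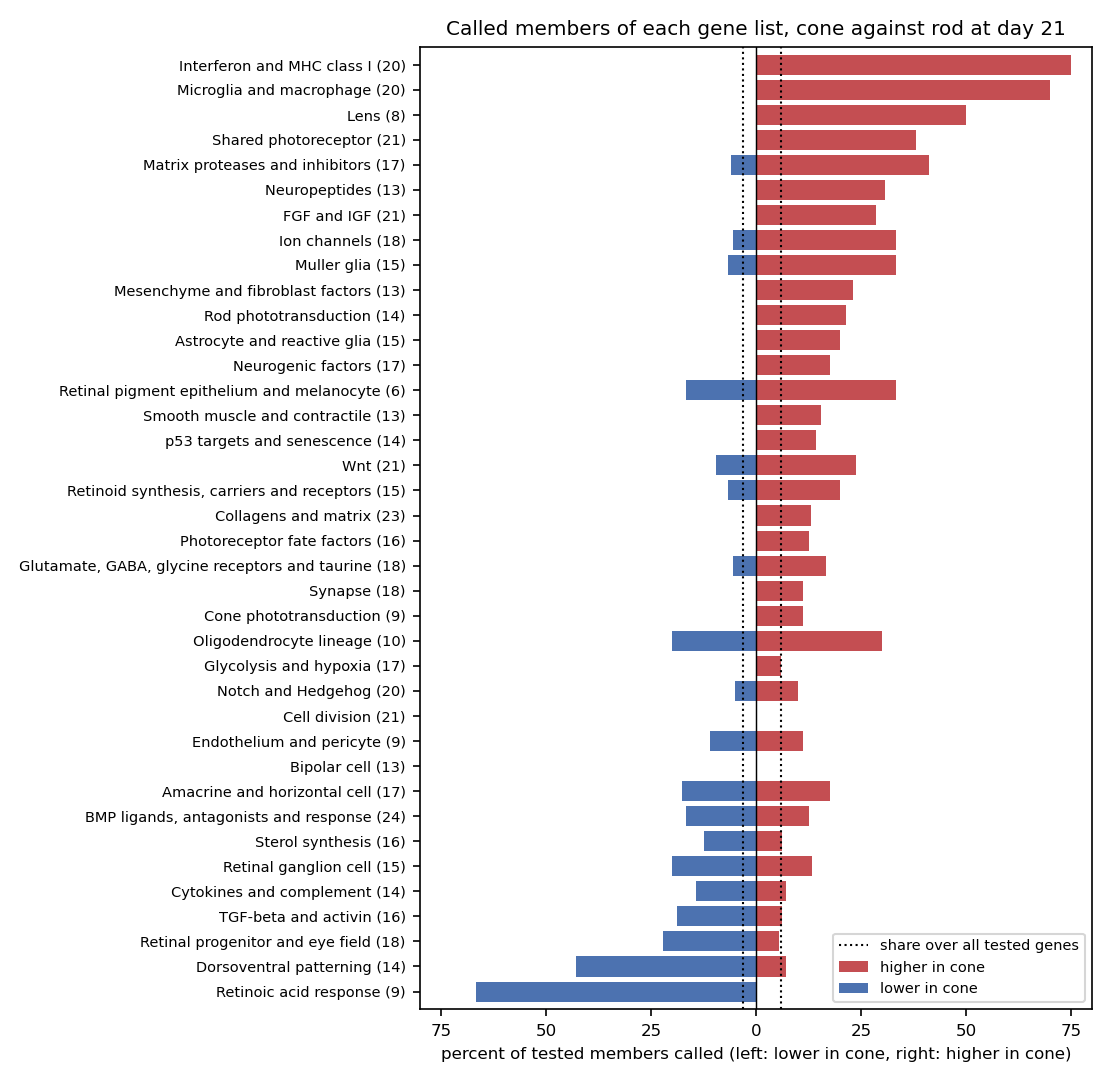
Share of the tested members of each gene list that were called higher (red, right) or lower (blue, left) in cone libraries at day 21, with the number tested in brackets. Dotted lines mark the shares over all tested genes, 5.86% and 3.14%. Interferon and microglia lists reach farthest to the right and the retinoic acid response list farthest to the left.

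Retinoic acid response genes were lower in cone libraries. Counts in this list and in those below stand beside shares over all genes of 5.86% higher and 3.14% lower. Of 18 listed genes 9 were expressed enough to be tested, and 6 were called, all lower. Their median log2 fold change was -1.07, against 0.03 over all genes. The other 9, 8 Hox genes and Cdx1, did not pass the count filter. With 1 library left out, the list held between 5 and 6 lower calls.

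Cyp26a1 (chr19:37697798-37701536), the enzyme that clears retinoic acid, stood at 2.36, 8.99 and 3.85 CPM in cone replicates 1 to 3 and at 138, 162 and 130 CPM in rod replicates. Every rod library lay far above every cone library. The log2 fold change was -4.78 ± 0.43 (SE; adjusted p 1.03e-07). In untreated cells at day 0 the level was 22.7 ± 12.7 CPM (SD, n = 3). The cone libraries lay below that mean and the rod libraries above it. Levels in untreated cells, here and below, are set beside day 21 as values, and the difference was not tested. Cyp26b1 (chr6:84571414-84593908), a second such enzyme, stood at 8.00, 4.28 and 11.7 CPM in cone and 155, 420 and 389 CPM in rod libraries. Its log2 fold change of -5.32 ± 0.64 (adjusted p 3.98e-06) was the largest fall among the genes named by rule, although rod replicate 1 was well below the other rod libraries.

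Rarb (chr14:16430839-16819156), the receptor gene whose promoter is shown above, was steady within each group, at 29.5, 23.0 and 24.1 CPM in cone and 126, 136 and 127 CPM in rod libraries. Its log2 fold change was -2.35 ± 0.21 (adjusted p 1.03e-07). Untreated cells had 0.613 ± 0.358 CPM (SD, n = 3), so Rarb at day 21 was above the starting level in both conditions. Dhrs3, which turns retinaldehyde back into retinol, measured 82.4, 85.9 and 75.9 CPM in cone and 305, 354 and 278 CPM in rod libraries. Its log2 fold change was -1.94 ± 0.28 (adjusted p 4.24e-05). Tgm2 and Nrip1 were the other 2 members called, with log2 fold changes of -1.07 ± 0.28 and -0.61 ± 0.11, and are named here after their values were seen. The call of Tgm2 was lost without cone replicate 3, rod replicate 2 or rod replicate 3 (adjusted p up to 0.0878). Stra6, a retinol transporter, was at most 0.918 CPM in all 6 libraries, and Zfp703 had a log2 fold change of 0.14 ± 0.26 (adjusted p 0.81).

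**Figure D2:**
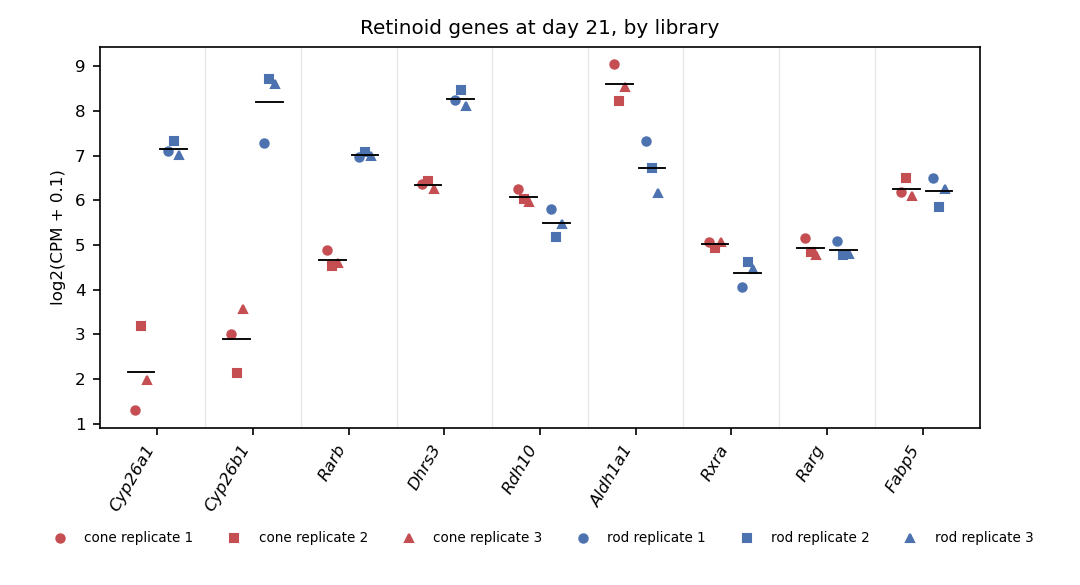
Retinoid genes at day 21, as log2(CPM + 0.1), with 1 symbol per library (cone red, rod blue, shapes for replicates 1 to 3) and a black line at each group's mean. Cyp26a1, Cyp26b1, Rarb and Dhrs3 separate with rod libraries on top, Aldh1a1 separates the other way, and Rarg and Fabp5 overlap.

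The genes that make, carry and sense retinoids did not move as 1 group. Of 15 tested, 3 were called higher and 1 lower, with a median of 0.03. Aldh1a1, an enzyme that makes retinoic acid and is known from the dorsal retina, was higher in cone libraries, at 529, 300 and 370 CPM against 161, 105 and 71.4 CPM. The groups did not overlap, and the log2 fold change was 1.83 ± 0.54 (adjusted p 0.0336). That call was lost without 4 of the 6 libraries, with an adjusted p up to 0.153 without rod replicate 3. Rxra and Rdh10 were called higher by less than 1 on the log2 scale, and each call was lost without 5 of the 6 libraries, with adjusted p up to 0.138 without rod replicate 1 and 0.211 without rod replicate 2. All 3 higher calls of the list were absent without cone replicate 1, without cone replicate 3 or without rod replicate 3. Rarg, a further receptor, was level at 35.4, 28.5 and 27.5 CPM against 34.1, 27.3 and 27.9 CPM.

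Photoreceptor genes were higher in 2 of the 3 cone libraries. Among 21 genes shared by rods and cones 8 were called higher and 0 lower. Of 14 rod phototransduction genes 3 were called higher, of 9 cone phototransduction genes 1, and of 16 photoreceptor fate factors 2. None of these 4 lists had a member called lower, against 3.14% of all genes, and 5.86% of all genes were called higher. Medians were 3.51, 3.78, 1.34 and 1.15, and the cone list's median was 1.16 with genes at the floor set to their bounds. The summed level of the shared list was 58.8, 599 and 436 CPM in cone replicates 1 to 3 and 57.5 to 77.8 CPM in rod libraries. Cone replicate 1 was thus within the range of the rod libraries.

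Rp1 (chr1:3999557-4409241), a microtubule protein of the photoreceptor cilium, measured 3.02, 85.2 and 81.8 CPM in cone and 1.47, 0.0772 and 0.913 CPM in rod libraries (log2 fold change 6.10 ± 1.46, adjusted p 0.00778). Without rod replicate 2 its adjusted p was 0.0504. Grk1, a kinase that shuts off the light response, measured 1.57, 25.5 and 22.7 CPM against 0.154, 0.541 and 0.978 CPM (log2 fold change 4.86 ± 1.45). Rpgrip1, a protein of the connecting cilium, measured 4.72, 86.7 and 62.9 CPM against 2.55, 3.09 and 1.04 CPM (log2 fold change 4.56 ± 1.20). In all 3 genes the groups did not overlap, yet cone replicate 1 lay far nearer to the rod libraries than to its own group. The call of Grk1 (adjusted p 0.0341) was lost on leaving out any 1 of the 5 libraries other than cone replicate 1, with an adjusted p up to 0.112 without rod replicate 2. Rpgrip1 (adjusted p 0.0158) lost its call without cone replicate 2, rod replicate 2 or rod replicate 3, with adjusted p up to 0.0838.

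Pde6a, a subunit of the rod phosphodiesterase, was called higher, at 1.84, 22.5 and 17.5 CPM in cone and 0.386, 0.0772 and 0.326 CPM in rod libraries (adjusted p 0.0204), and lost its call without 4 of the 6 libraries, with an adjusted p up to 0.0915 without rod replicate 2. The shared list held 9 higher calls without cone replicate 1, 2 without cone replicate 2, 4 without cone replicate 3, 3 without rod replicate 1, 0 without rod replicate 2 and 1 without rod replicate 3. The rod list held 4 higher calls without cone replicate 1, 1 without cone replicate 3 or rod replicate 1, and 0 without cone replicate 2, rod replicate 2 or rod replicate 3. DESeq2 called 13 of the shared and 9 of the rod genes, edgeR on the 6 libraries alone 5 of each, and voom with quality weights 7 and 3. The members differed: voom did not call Rp1, Rp1l1, Tulp1 or Pdc of the shared list, Cnga1 or Slc24a1 of the rod list, nor Grk1 or Samd7. In bulk samples, fewer cells of a type and less RNA per cell cannot be told apart.

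Among the fate factors, Neurod1, a factor of newborn photoreceptors and amacrine cells, was called higher, at 7.48, 32.0 and 19.2 CPM against 2.63, 4.94 and 2.67 CPM (log2 fold change 2.54 ± 0.72, adjusted p 0.0237). It was not called without cone replicate 2 (adjusted p 0.13), rod replicate 1 (0.0791) or rod replicate 3 (0.1). Samd7, a repressor active in photoreceptors, was the other call, at 0.394, 9.67 and 5.18 CPM against 0.309, 0 and 0 CPM (adjusted p 0.0469). It was lost without any 1 of 5 libraries, with an adjusted p up to 0.176 without cone replicate 2. Crx (chr7:15865947-15879968) measured 8.00, 39.6 and 25.1 CPM against 6.18, 8.42 and 6.33 CPM and Otx2 6.56, 19.3 and 11.6 CPM against 3.24, 6.87 and 6.52 CPM. In both genes cone replicate 1 overlapped the rod range, and neither was called (adjusted p 0.0953 and 0.167). Crx had stood at 484 ± 86.6 CPM (SD, n = 3) in untreated cells at day 0, so all 6 libraries were far below the start. Nrl, the rod determinant, was at 0, 3.77 and 2.37 CPM in cone and 0, 0 and 0.391 CPM in rod libraries. Nr2e3, its partner, had 160 counts over the cone and 1 over the rod libraries, a ratio of 201 (95% counting interval 35.6 to 7990), but none in cone replicate 1, and was not called (adjusted p 0.212).

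Cone-specific transcripts were scarce. The short-wave cone opsin Opn1sw had 2 counts over the cone libraries and 3 over the rod libraries, at or under the floor in each. Arr3, cone arrestin, had 8 and 0 counts and Gnat2, the cone transducin, was at most 1.46 CPM in every library. Pde6c, the cone phosphodiesterase, was the 1 cone gene called, at 0.394, 2.74 and 1.55 CPM against 0, 0 and 0.261 CPM (adjusted p 0.0168), and it lost its call without cone replicate 2, rod replicate 1 or rod replicate 2 (adjusted p up to 0.0996). Thrb, the thyroid hormone receptor of cone precursors, measured 21.3, 25.1 and 24.5 CPM against 9.19, 17.8 and 16.7 CPM. Its groups did not overlap, but the log2 fold change of 0.70 ± 0.43 was not called (adjusted p 0.358). Rorb, a nuclear receptor of photoreceptor precursors, measured 147, 160 and 160 CPM against 119, 97.3 and 100 CPM and was not called (adjusted p 0.115). Sox15, the gene of the study's title, had 6 counts over the cone and 25 over the rod libraries, at 0.131, 0.0856 and 0.296 CPM against 0.0772, 0.386 and 1.24 CPM. The groups overlapped and Sox15 was not called (log2 fold change -1.64 ± 0.81, adjusted p 0.23).

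**Figure D3:**
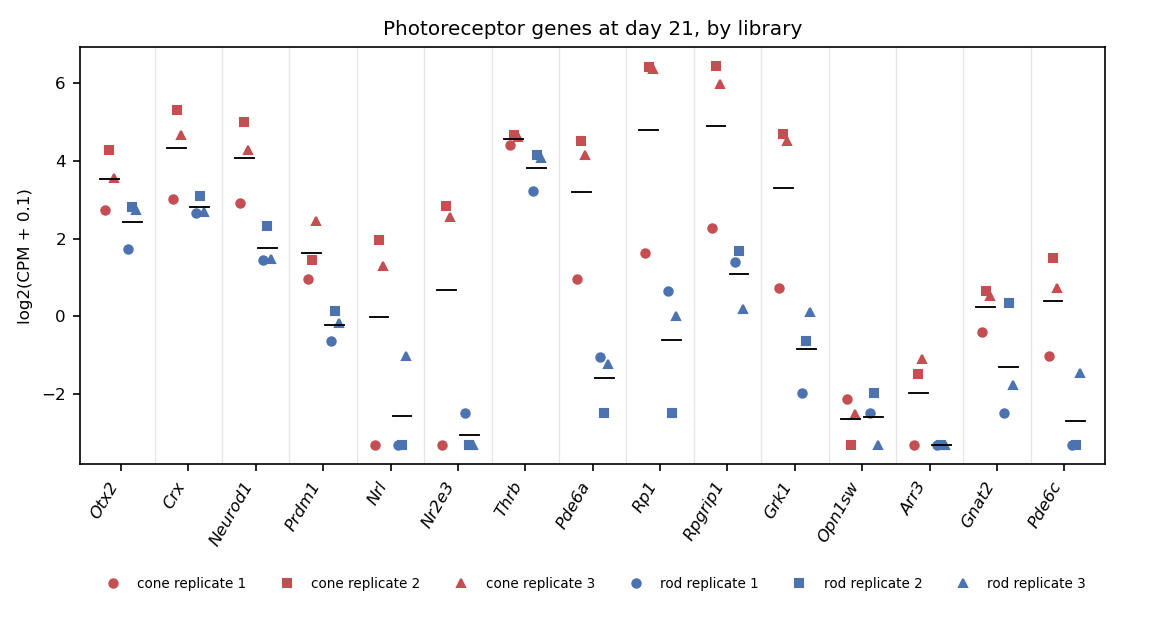
Photoreceptor genes at day 21, as log2(CPM + 0.1), with 1 symbol per library (cone red, rod blue, shapes for replicates 1 to 3) and a black line at each group's mean. Cone replicate 1 (red circle) sits near the rod libraries for Rp1 and Nr2e3, while Opn1sw and Arr3 stay at the bottom of the scale in all 6 libraries.

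The CRX core motif TAATCC was searched on both strands in the 250 bases before each start. It was found in 7.21% of all genes with a promoter sequence. It was found in 7 of the 16 shared photoreceptor genes with a sequence, in 4 of 8 rod genes, in 2 of 8 cone genes and in 5 of 16 fate factors. Among called members with a sequence, 2 of 4 shared, 1 of 2 rod and 1 of 2 fate genes held it. Called cone genes with a sequence numbered 0. So few called members cannot show whether called genes held the motif more often than the rest of their lists. The lists were chosen as photoreceptor genes, so these shares are descriptions and not a test. A match is not evidence of binding. Rbp3, which carries retinoids between photoreceptors and pigment epithelium, and Crx are shown as examples chosen after their values were seen, with the motif or its complement in capitals.
Rbp3, chr14:33953909-33953964, plus strand: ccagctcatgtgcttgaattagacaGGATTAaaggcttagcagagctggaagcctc
Crx, chr7:15879956-15880074, minus strand: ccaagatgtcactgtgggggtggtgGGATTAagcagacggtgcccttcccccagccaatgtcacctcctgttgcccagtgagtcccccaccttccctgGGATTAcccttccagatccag
Rbp3 measured 5.90, 157 and 68.5 CPM in cone and 4.48, 4.32 and 3.46 CPM in rod libraries and was called (adjusted p 0.0233), with the same low first cone library as the genes above. Its call was lost without cone replicate 2 or any 1 of the rod libraries, with an adjusted p up to 0.117 without cone replicate 2.

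Tbx2 and Tbx5, T-box factors of the dorsal retina, were called lower in cone libraries, within a mixed list. Only the call of Tbx2 held whichever library was left out. Aldh1a1, given above as an enzyme known from the dorsal retina, was higher in cone libraries. Of 14 dorsoventral patterning genes 6 were called lower and 1 higher, with a median of -0.70. Tbx2 (chr11:85832551-85841948), a dorsal T-box repressor, measured 37.7, 43.9 and 30.1 CPM in cone and 210, 269 and 235 CPM in rod libraries (log2 fold change -2.68 ± 0.27, adjusted p 3.51e-07). Untreated cells had 58.1 ± 10.2 CPM (SD, n = 3), which lies between the groups. Tbx5, a second dorsal factor, measured 5.90, 9.33 and 3.11 CPM against 28.5, 86.0 and 41.3 CPM, but its call (adjusted p 0.0483) was lost without any 1 of 5 libraries, with an adjusted p up to 0.173 without rod replicate 2. Foxd1, a factor of the temporal retina, fell from 1.85, 3.63 and 1.96 CPM in rod to 0.787, 0.599 and 0.444 CPM in cone libraries (adjusted p 0.00522). Vax1, a ventral factor, was the member called higher, at 3.94, 2.40 and 3.55 CPM against 1.00, 0.0772 and 0.652 CPM (adjusted p 0.0391). It too was lost without any 1 of 5 libraries, with an adjusted p up to 0.164 without rod replicate 2. Lower calls in the list numbered 4 without cone replicate 2, cone replicate 3, rod replicate 2 or rod replicate 3.

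Progenitor genes were partly lower in cone libraries. Of 18 tested, 4 were called lower and 1 higher. Rax, an eye field factor, measured 27.6, 29.5 and 22.6 CPM against 46.2, 52.3 and 45.5 CPM (log2 fold change -0.86 ± 0.20, adjusted p 0.00608). Hes1, the Notch effector that keeps progenitors dividing, measured 32.5, 22.7 and 36.9 CPM against 60.5, 49.8 and 65.0 CPM (-0.93 ± 0.21, adjusted p 0.00398). Nes, the progenitor filament nestin, fell likewise (-1.11 ± 0.27, adjusted p 0.00971). Hes5 was the member called higher, but on 3 or fewer counts over the rod libraries, at a ratio of 10.7 with a 95% counting interval of 2.54 to 95.3. Its call was lost without 4 of the 6 libraries, with an adjusted p up to 0.15 without rod replicate 3. Pax6 was not called (adjusted p 0.0747). Of 21 cell division genes 0 were called by edgeR. Their median was -0.57, and in 11 of them all cone libraries lay below all rod libraries, with 0 the other way. Among all genes tested, 24.7% did not overlap, counting both directions. Mki67, the proliferation antigen Ki-67, measured 381, 364 and 394 CPM against 781, 607 and 600 CPM (log2 fold change -0.80 ± 0.29, adjusted p 0.0872). DESeq2 called 1 of the 21 lower, voom with quality weights 6, and edgeR on the 6 libraries alone 4.

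Several transcription factors that are not photoreceptor genes separated the conditions almost completely. Gata2 (chr6:88193891-88207032), a zinc finger factor best known from blood and brain, measured 0.525, 1.03 and 0.666 CPM in cone and 21.4, 24.9 and 32.9 CPM in rod libraries (log2 fold change -5.11 ± 0.57, adjusted p 1.25e-06). Pou3f4 (chrX:110814280-110817207), a POU factor on the amacrine and horizontal list, measured 1.57, 1.03 and 0.814 CPM against 17.5, 33.9 and 20.2 CPM (-4.43 ± 0.50, adjusted p 1.25e-06). Olig2 (chr16:91225457-91228677), a basic helix-loop-helix factor of retinal progenitors and oligodendrocytes, went the other way. It measured 6.17, 8.90 and 13.7 CPM in cone libraries and had 336 counts there against 1 in the rod libraries. The ratio was 422, with a 95% counting interval of 75.3 to 16700 (adjusted p 2.77e-07). Olig1, its neighbour in the genome, had 325 counts against 1, a ratio of 408 (interval 72.8 to 16200). Untreated cells had 10.7 ± 2.42 CPM of Olig2 (SD, n = 3), close to the cone libraries.

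Of the 10 oligodendrocyte lineage genes tested, 3 were called higher and 2 lower, so the list did not move as 1 group. It held 0 lower calls without cone replicate 3 and 1 without cone replicate 1, cone replicate 2, rod replicate 1 or rod replicate 2. Pdgfra, the receptor of oligodendrocyte precursors and of retinal astrocytes, was higher in cone libraries, at 48.0, 196 and 102 CPM against 15.4, 40.1 and 22.6 CPM (adjusted p 0.0337). The call was lost without 4 of the 6 libraries, with an adjusted p up to 0.192 without cone replicate 2. Cldn11, a myelin claudin, was lower, on 1 count over the cone libraries, at a ratio of 28.6 with an interval of 4.82 to 1160. Its call was lost without cone replicate 2, cone replicate 3 or rod replicate 2, with an adjusted p up to 0.23. Sox10, Mag, Mog and Mobp, which define the lineage further, did not pass the count filter.

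The other large falls, named by a rule of size, included Clca3a2, Tmc3, Col25a1, Ttr and Fstl4. Tmc3, a transmembrane channel-like protein, measured 3.67, 3.17 and 3.33 CPM in cone and 42.8, 104 and 57.7 CPM in rod libraries. Ttr, transthyretin, which carries thyroid hormone and the retinol carrier Rbp4, measured 0.918, 0.685 and 0.666 CPM against 10.4, 13.7 and 17.9 CPM. Their log2 fold changes were -4.33 ± 0.57 and -4.22 ± 0.58. Col25a1 varied most among rod libraries, at 29.3, 201 and 100 CPM, against 5.38, 8.13 and 3.85 CPM in cone libraries (-4.25 ± 0.64). The 9 genes named here or above as the largest falls (Cyp26b1, Clca3a2, Gata2, Cyp26a1, Pou3f4, Tmc3, Col25a1, Ttr and Fstl4) kept their call whichever library was left out.

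Among the 10 largest rises were 3 genes outside the cell type lists. Fibin, a secreted fin bud initiation factor, measured 53.4, 37.2 and 40.2 CPM in cone and 2.70, 1.78 and 0.522 CPM in rod libraries (log2 fold change 4.72 ± 0.47, adjusted p 4.87e-07). Edaradd, an adaptor of the ectodysplasin receptor, measured 18.6, 15.1 and 13.6 CPM against 0.849, 0.618 and 0.196 CPM (4.84 ± 0.50, adjusted p 4.87e-07). Scel, sciellin of the epidermal cornified envelope, measured 13.0, 12.3 and 12.2 CPM against 0.386, 0.695 and 0.196 CPM (4.87 ± 0.55, adjusted p 1.34e-06). Cone replicate 1 was the highest of the cone libraries in all 3 genes.

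Microglia and macrophage genes were higher in cone libraries, with 14 of 20 tested members called higher and 0 lower and a median of 3.49. The summed level of the list was 124, 204 and 183 CPM in cone and 28.4 to 34.1 CPM in rod libraries. Lyz2 (chr10:117277331-117282321), lysozyme of macrophages, measured 25.2, 55.1 and 51.3 CPM against 0.232, 0.386 and 0.848 CPM (log2 fold change 6.42 ± 0.88, adjusted p 1.95e-05). Ctss, a lysosomal protease, measured 6.95, 10.9 and 14.1 CPM against 0, 0.154 and 0.456 CPM (5.58 ± 1.08, adjusted p 0.00117). Csf1r, the receptor on which microglia depend, measured 2.62, 11.9 and 9.70 CPM against 0, 0.772 and 0.196 CPM (adjusted p 0.0105, or 0.0635 without rod replicate 3). Mrc1, a mannose receptor of macrophages, had 116 counts in cone and 0 in rod libraries and was at least 15.8-fold higher against a floor of 3 counts per library, although its call was lost without cone replicate 2, rod replicate 2 or rod replicate 3 (adjusted p up to 0.0661). Gpnmb, a glycoprotein of phagocytes and pigment cells, measured 16.3, 24.4 and 27.6 CPM against 0.463, 0.695 and 2.09 CPM (adjusted p 0.000212). Ptprc, the leukocyte antigen CD45, was not called (adjusted p 0.0649) although its groups did not overlap, and Cd68 overlapped at 2.10, 6.76 and 7.70 CPM against 2.47, 3.86 and 3.98 CPM. Higher calls in the list numbered 13 without cone replicate 1 and 8 without cone replicate 2, rod replicate 2 or rod replicate 3.

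Interferon response and MHC class I genes were higher in cone libraries as well, with 15 of 20 members called higher and 0 lower and a median of 1.35. Ifit1 (chr19:34640871-34650009), an RNA-binding antiviral protein, measured 17.3, 9.25 and 17.4 CPM against 0.232, 0.386 and 1.24 CPM (log2 fold change 4.49 ± 0.56, adjusted p 1.2e-05). In untreated cells it had 0 counts. Ifit3 measured 13.9, 8.99 and 14.9 CPM against 1.16, 1.31 and 1.04 CPM (3.42 ± 0.41, adjusted p 4.21e-06), and Bst2, the tether of enveloped viruses, 9.45, 3.77 and 6.59 CPM against 0.618, 1.08 and 0.587 CPM (3.10 ± 0.50, adjusted p 0.000193). Isg15, a ubiquitin-like modifier, had 39 counts against 3, a ratio of 16.3 with an interval of 5.19 to 82.6 (adjusted p 0.0113, or 0.0528 without cone replicate 3 and 0.0687 without rod replicate 3). Ifit2 and Oasl2 were not called, with log2 fold changes of 0.71 ± 0.30 and -0.29 ± 0.27. In these genes cone replicate 1 was not low, unlike in the photoreceptor genes, and cone replicate 2 was the lowest. Higher calls numbered 10 without cone replicate 3 and 15 without cone replicate 2. Microglia can themselves express interferon-induced genes, and the part of the microglia genes in the interferon difference was not tested.

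Promoters of 4 of these genes are shown because they carry the element through which interferon-activated factors bind. Capitals mark the core of the interferon-stimulated response element, GAAA, any 2 bases and GAAA again, on either strand, with overlapping matches joined.
Ifit1, chr19:34640760-34640838, plus strand: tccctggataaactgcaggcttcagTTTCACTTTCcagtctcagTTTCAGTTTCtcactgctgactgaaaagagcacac
Ifit3, chr19:34583348-34583441, plus strand: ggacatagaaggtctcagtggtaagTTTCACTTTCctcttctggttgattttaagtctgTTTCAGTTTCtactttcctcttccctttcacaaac
Isg15, chr4:156200850-156200921, minus strand: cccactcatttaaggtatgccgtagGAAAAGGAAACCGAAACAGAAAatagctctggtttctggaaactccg
Bst2, chr8:71537562-71537627, minus strand: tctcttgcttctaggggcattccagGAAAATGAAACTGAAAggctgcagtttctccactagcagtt
Of the 17 listed genes with a promoter sequence 7 held a match, and 3.46% of all genes did. All 7 were among the 13 of these 17 genes that were called. The list was chosen as interferon response genes, so this overlap is a description and not a test.

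**Figure D4:**
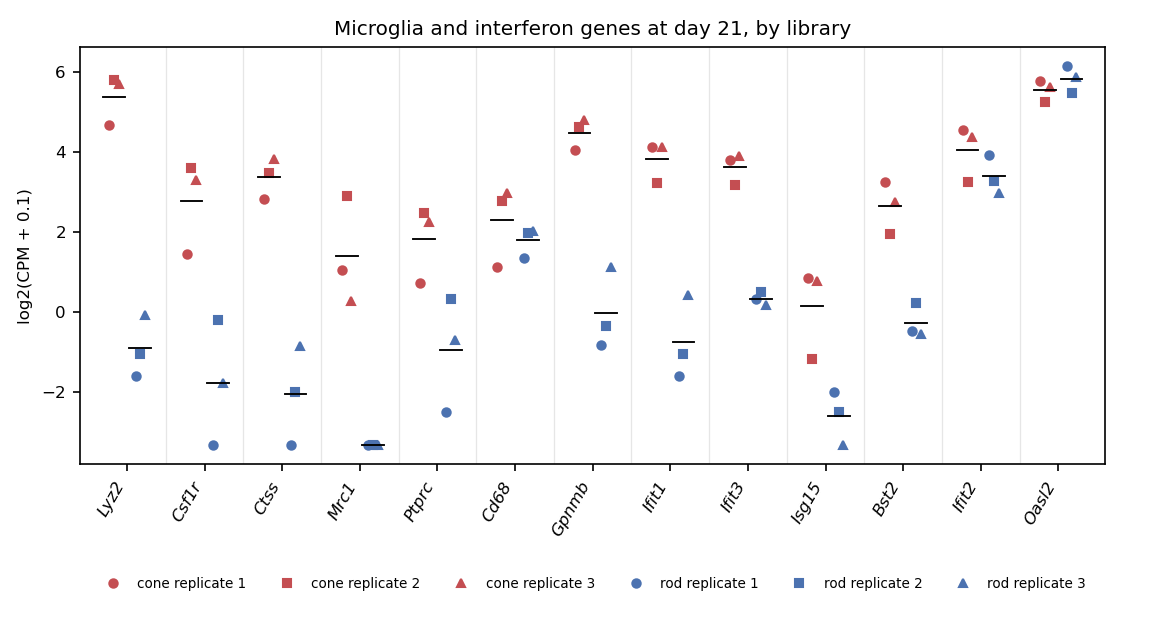
Microglia genes (Lyz2 to Gpnmb) and interferon genes (Ifit1 to Oasl2) at day 21, as log2(CPM + 0.1), with 1 symbol per library (cone red, rod blue, shapes for replicates 1 to 3) and a black line at each group's mean. Cone libraries lie above rod libraries except for Cd68, Ifit2 and Oasl2, where the groups overlap, and Mrc1 is at 0 in all rod libraries.

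The ligand pathways that COCO is known to block showed calls in both directions. Over all genes 5.86% were called higher and 3.14% lower. Of 24 BMP genes 3 were called higher and 4 lower, the lower calls numbering 2 without cone replicate 2, cone replicate 3, rod replicate 1 or rod replicate 3. Bmp2 measured 6.30, 6.76 and 5.70 CPM in cone and 54.7, 32.2 and 52.7 CPM in rod libraries (log2 fold change -2.90 ± 0.34, adjusted p 2.41e-06). The other lower calls were Smad6, Smad7 and Smad9, feedback and signalling proteins of the pathway, at -1.28 ± 0.25, -0.71 ± 0.20 and -1.25 ± 0.38, named here after their values were seen. Smad7 lost its call without 4 of the 6 libraries and Smad9 without each of them, with adjusted p up to 0.104 and 0.122, both without rod replicate 3. Bmp6 and Bmp7 rose by 2.21 ± 0.49 and 1.45 ± 0.23 on the log2 scale, and Grem1, a secreted BMP antagonist, measured 154, 87.1 and 81.2 CPM against 26.7, 13.3 and 35.0 CPM (adjusted p 0.00478). Of 16 TGF-beta and activin genes 1 was higher and 3 lower. Skil and Pmepa1, feedback targets of the pathway, were lower at -0.77 ± 0.12 and -0.86 ± 0.16 (adjusted p 0.000167 and 0.000541), and Inhbb, an activin subunit, was higher at 2.20 ± 0.45 (adjusted p 0.00183). Ltbp1, which holds latent TGF-beta in the matrix, was lower (adjusted p 0.0221), a call lost without any 1 of 5 libraries with an adjusted p up to 0.0776 without cone replicate 3.

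Of 21 Wnt genes 5 were higher and 2 lower. The lower genes were Tcf7, a Wnt effector, and Notum, which inactivates Wnt ligands, at -1.38 ± 0.40 and -2.10 ± 0.60 (adjusted p 0.029 and 0.0265). The lower calls numbered 0 without cone replicate 3 or rod replicate 1 and 1 without cone replicate 2. Sfrp1, a secreted Wnt inhibitor, measured 248, 253 and 141 CPM against 41.5, 26.5 and 34.8 CPM (2.64 ± 0.33, adjusted p 6.41e-06). Rspo3, which amplifies Wnt signals, measured 4.99, 3.34 and 6.00 CPM against 0.386, 0.0772 and 0 CPM (adjusted p 0.000196), and its receptor Lgr5 5.90, 11.2 and 4.00 CPM against 0.309, 2.63 and 1.30 CPM (adjusted p 0.00189, or 0.072 in a fit of the 6 libraries alone). Of 21 FGF and IGF genes 6 were higher and 0 lower, or 4 to 5 higher with 1 library left out. The call of Igfbp2 (adjusted p 0.0226) was lost without 3 of the 6 libraries. That of Igfbp5 (adjusted p 0.048) was lost without each of the 6, with an adjusted p up to 0.175 without rod replicate 1. Igfbp3, an IGF carrier, measured 627, 405 and 469 CPM against 97.1, 25.5 and 44.1 CPM (3.17 ± 0.57, adjusted p 0.000535). Fgfr3, an FGF receptor, rose by 1.64 ± 0.37 (adjusted p 0.0045). Among the 20 Notch and Hedgehog genes 2 were higher and 1 lower, beside 5.86% and 3.14% over all genes. The higher calls numbered 0 without rod replicate 3 and 1 without cone replicate 2, rod replicate 1 or rod replicate 2. The lower calls numbered 0 without cone replicate 1, cone replicate 3, rod replicate 2 or rod replicate 3, and 2 without rod replicate 1.

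Among neural genes, 3 of 17 neurogenic factors were called higher and 0 lower. Neurog2 (chr3:127633135-127635631), a proneural factor, measured 21.8, 27.1 and 28.0 CPM against 5.02, 7.03 and 10.2 CPM (1.79 ± 0.35, adjusted p 0.00118). Stmn2 and Dcx, microtubule proteins of young neurons, rose by 2.00 ± 0.40 and 2.70 ± 0.61 (adjusted p 0.00174 and 0.00495), the latter with an adjusted p of 0.06 without cone replicate 2. Of 18 ion channel genes 6 were higher and 1 lower, or 0 lower without cone replicate 3 or rod replicate 1. Over all genes 65.1% of calls were higher, with 5.86% of genes called higher and 3.14% lower. The potassium channels Kcna1 and Kcna2 measured 36.1, 33.0 and 37.8 CPM against 12.0, 8.73 and 6.26 CPM, and 55.8, 101 and 64.4 CPM against 21.4, 20.4 and 23.8 CPM (adjusted p 1.03e-05 and 4.61e-06). Of 13 neuropeptide genes 4 were higher. Penk, proenkephalin, measured 6.30, 2.05 and 4.66 CPM against 0.540, 0.309 and 0.130 CPM (adjusted p 3.27e-05), and Pdyn, prodynorphin, 14.4, 10.9 and 5.77 CPM against 0.540, 1.00 and 0.522 CPM (adjusted p 0.000163).

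Markers of other retinal neurons were mixed, beside 5.86% of all genes called higher and 3.14% lower. Of 17 amacrine and horizontal cell genes 3 were higher and 3 lower, or 1 lower without cone replicate 1 or rod replicate 2. Tfap2a, an amacrine and horizontal factor, measured 61.8, 60.7 and 57.3 CPM against 16.5, 4.32 and 11.0 CPM (2.49 ± 0.44, adjusted p 0.0005). Of 15 ganglion cell genes 2 were higher and 3 lower. The lower calls numbered 1 without cone replicate 2 or rod replicate 2, and the higher calls 1 without rod replicate 3. The list held Thy1, a neuronal surface protein, at 15.7, 12.4 and 17.1 CPM against 2.93, 3.63 and 2.02 CPM (adjusted p 0.00488) and Rbpms, an RNA-binding protein of ganglion cells, at 19.6, 20.5 and 15.8 CPM against 48.0, 78.3 and 53.3 CPM (adjusted p 0.00141). Of 13 bipolar cell genes 0 were called. Slc6a6, the taurine transporter, was lower in cone libraries, at 271, 332 and 264 CPM against 429, 766 and 621 CPM (-1.07 ± 0.22, adjusted p 0.00193). Taurine was part of the rod medium, but COCO and retinoic acid differed between the groups too. The part of taurine in this difference cannot be told apart and was not tested.

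Glial, matrix and other non-neuronal lists are read against 65.1% of all calls being higher in cone libraries. The shares of all genes called were 5.86% higher and 3.14% lower. Cytokine and complement genes had 1 higher and 2 lower calls of 14 tested, and endothelial and pericyte genes 1 and 1 of 9. Of 15 Müller glia genes 5 were higher and 1 lower, the higher calls numbering 2 without cone replicate 1, 3 without cone replicate 2 and 1 without rod replicate 2 or rod replicate 3. Apoe, a lipid carrier, measured 1080, 1040 and 820 CPM against 341, 247 and 332 CPM (1.68 ± 0.37, adjusted p 0.00358). Hkdc1, a hexokinase, was lower at 3.81, 5.99 and 3.11 CPM against 47.0, 18.8 and 29.9 CPM (-2.88 ± 0.39, adjusted p 1.65e-05). Gfap, the filament of astrocytes and reactive glia, measured 333, 332 and 169 CPM against 129, 61.2 and 127 CPM. Its call (adjusted p 0.0425) was lost without any 1 of 5 libraries, with an adjusted p up to 0.192 without rod replicate 2, and was absent under DESeq2 (0.0783). Of 17 matrix protease and inhibitor genes 7 were higher and 1 lower, the higher calls numbering 3 without cone replicate 1 and 4 without rod replicate 2. Lox, which crosslinks collagen, measured 255, 146 and 195 CPM against 53.6, 56.2 and 81.8 CPM (1.63 ± 0.30, adjusted p 0.000823). Of 23 collagen and matrix genes 3 were higher, or 1 without rod replicate 3 and 11 in a fit of the 6 libraries alone. Col1a1, fibrillar collagen, measured 340, 208 and 272 CPM against 49.3, 93.1 and 68.7 CPM, with an adjusted p of 0.0192 that reached 0.0796 without rod replicate 1, 0.076 without rod replicate 3 and 0.0661 without cone replicate 1. Of 13 mesenchyme genes 3 were higher and 0 lower, with a median of 0.20, and 1 was higher without rod replicate 3. Thbs2, a matrix thrombospondin of that list, measured 60.9, 33.7 and 39.4 CPM against 3.94, 2.86 and 3.20 CPM (3.74 ± 0.53, adjusted p 2.63e-05). Of 8 lens genes 4 were called higher on few counts, Cryaa at a ratio of 20.9 with an interval of 6.77 to 105, and 0 of the list were called without cone replicate 2, 1 without cone replicate 1, rod replicate 2 or rod replicate 3, and 2 without rod replicate 1.

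Day 21 was then set beside the neighbouring days. Over all 18150 genes, 5.98% were called higher and 4.12% lower at day 12, and 7.77% and 4.51% at day 35. Of the 1063 genes higher in cone libraries at day 21, 397 were also called higher at day 12 and 678 at day 35. Of the 570 lower genes, 236 were also lower at day 12 and 313 at day 35. Called the same way on both other days were 345 higher and 196 lower genes, and 333 higher and 217 lower genes were called the same way on neither. These days share no library with day 21. Few genes differed between days by the test of the difference itself. The cone minus rod difference at day 21 departed from that at day 12 in 78 genes (0.430%) and from that at day 35 in 1 gene (0.00551%), with 2406 and 965 genes at an unadjusted p under 0.05. The first count ran from 6 (without cone day 12 replicate 3) to 739 (without rod day 12 replicate 1) when 1 of its 12 libraries was left out.

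Levels of some of these genes on the other days are given as values, without a test. Cyp26a1 stood at 24.8 ± 11.2 CPM in cone primed and 255 ± 27.9 CPM in rod primed cells at day 0 (SD, n = 3 here and below), and Rarb at 0.614 ± 0.347 and 97.3 ± 6.37 CPM. Gata2 stood at 0.0968 ± 0.106 and 3.87 ± 2.87 CPM then, and at 1.42 ± 0.56 and 11.9 ± 2.54 CPM at day 35. Olig2 started level, at 9.07 ± 1.48 and 12.0 ± 2.91 CPM. In cone cells it stood at 9.64 ± 6.07 CPM at day 12 and 4.12 ± 1.42 CPM at day 35. In rod cells it stood at 0.143 ± 0.143 CPM at day 12 and at 0 counts at day 35. Ifit1 stood at 3.51 ± 1.13 CPM (cone) and 0.382 ± 0.327 CPM (rod) at day 12, and at 54.6 ± 19.1 and 0.978 ± 0.578 CPM at day 35. The interferon list had 5 higher calls at day 12, 15 at day 21 and 19 at day 35, and the microglia list 2, 14 and 18, though no member of either passed the test of the difference between days.

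Photoreceptor genes followed another course. Crx stood at 637 ± 60.7 CPM (cone) and 446 ± 93.2 CPM (rod) at day 5, at 67.2 ± 53.4 and 182 ± 216 CPM at day 12, and at 8.65 ± 5.80 and 3.77 ± 1.88 CPM at day 35. Rp1 stood at 731 ± 259 and 481 ± 252 CPM at day 5 and at 8.95 ± 8.82 and 0.408 ± 0.209 CPM at day 35. In rod cells at day 12 the SD exceeded the mean for both genes, with Rp1 at 312 ± 490 CPM. The 4 photoreceptor lists had 0 higher calls at days 12 and 35, and the rod list had 1 lower call at day 12. Medians were -0.52 (fate), -1.16 (rod), -0.89 (shared) and 0.53 (cone) at day 12, so 3 of the 4 had the opposite sign to day 21, and 0.78, 2.02, 2.40 and 1.36 at day 35. In all, 0 of their members were called in the test of day 21 against either day.

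**Figure D5:**
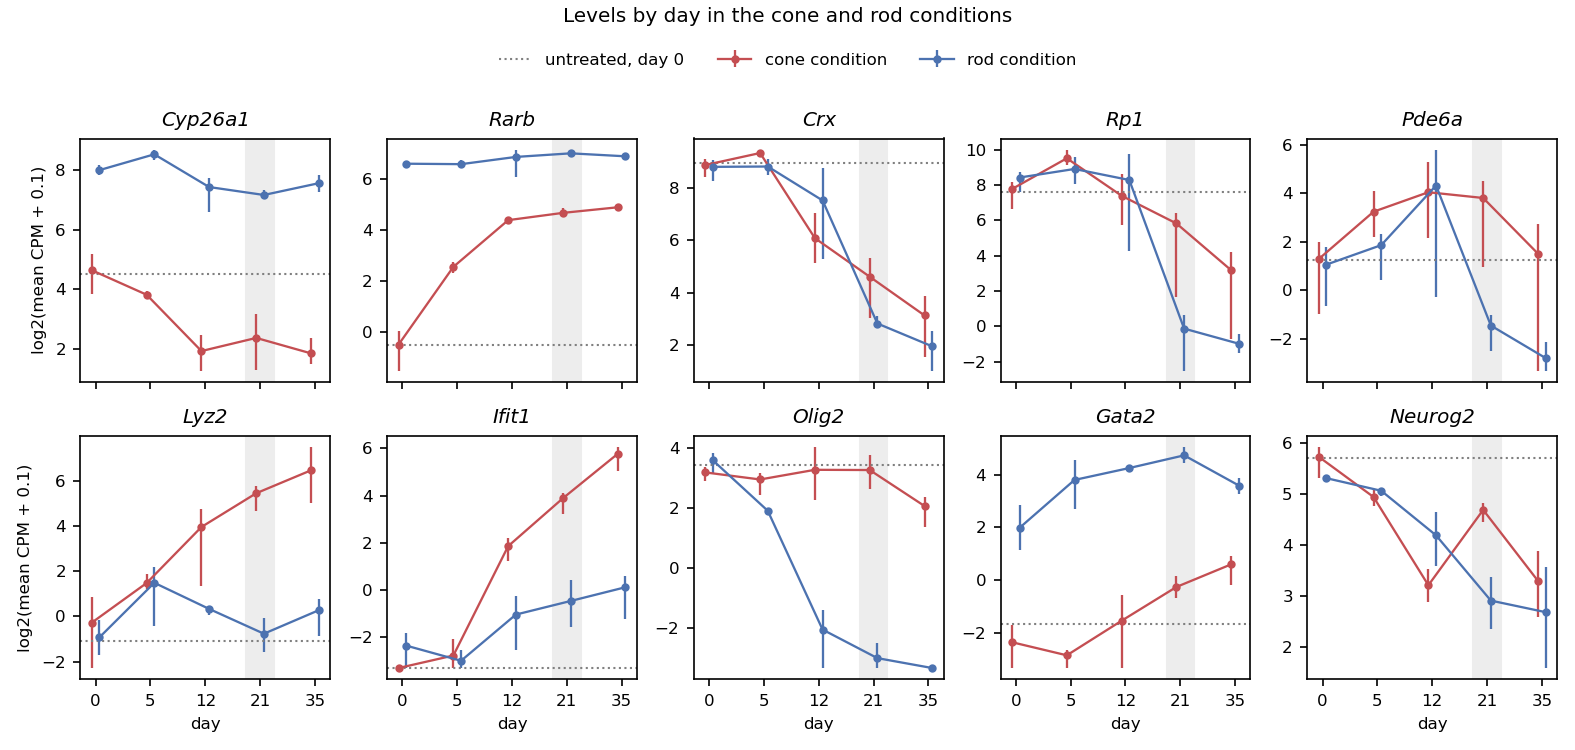
Mean level by day in cone (red) and rod (blue) cells, as log2(mean CPM + 0.1), with bars from the lowest to the highest of 3 libraries, day 0 being the primed cells and the dotted line the untreated cells. Day 21 is shaded. Cyp26a1, Rarb and Gata2 are apart from the start, Olig2, Lyz2 and Ifit1 part later, and Crx and Rp1 are lower at day 35 than at day 5 in both conditions.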

How the data were processed

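Bulk RNA of 33 libraries was measured, and the 6 of day 21 were compared. The authors deposited read counts per gene for 47729 genes, and tables of TPM, FPKM and coverage per the file headers. HISAT2, StringTie, HTSeq and the build GRCm38 are named in the submitters' processing notes, with no versions; per the labels' protocols RNA and libraries were made with Takara low-input kits. The strand setting is not given in the sources used here, so reads of overlapping or antisense genes may not be told apart. FPKM and coverage as deposited were not used.

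Counts were filtered with filterByExpr (minimum count 10), scaled by TMM and fitted with the quasi-likelihood test of edgeR 4.0.16 in R 4.3.3, with a coefficient for each of 11 groups. P-values were Benjamini-Hochberg adjusted over all 18150 genes tested, and a gene was called under 0.05. The ± on log2 fold changes is the SE. Names and positions are from GENCODE M21, which held 47310 of the gene IDs. Of 225 genes named by rule 159 had a promoter sequence. On simulated counts for 18150 genes, of which 17590 were tested, the day 21 test recovered 52% of genes changed 2-fold and 83% of those changed 4-fold, with 7 false calls, and made 0 calls where no gene was changed. The simulation gave a gene the same fitted spread in every library and changed only genes averaging at least 10 counts. It held no outlying library such as cone replicate 1, so the real test may recover fewer genes and make more false calls.

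The members and the 38 gene lists (653 genes, 598 tested) were chosen with earlier results of these data known, so list counts are descriptions. Named by rule were 26 set genes, the 10 largest rises and falls (called, groups apart, average level from 1 log2 CPM upwards), and in each list up to 4 called and 2 uncalled members. For each of the tests between days, the 3 largest changes each way were also named. Alternatives were RLE size factors, no count filter, DESeq2 1.42.0, voom of limma 3.58.1 with quality weights, a replicate block, the 6 libraries alone, a mean of 1 CPM, gene removals, deposited TPM with a pseudocount of 1 or 0.1, and each library left out. A few of the genes so chosen are left out of the text and its counts of named genes.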

Additional observations from a re-analysis of the deposited data

Results flagged for a closer look

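These results are listed because the cone minus rod difference at day 21 departed from that at day 12 or day 35 in a test of the difference itself; each value is the log2 change between days with its SE. Against day 12, Neurog2 differed by 2.76 ± 0.49 (adjusted p 0.0123), going from -0.98 to 1.79. The potassium channels Kcna1 and Kcna2 differed by 1.92 ± 0.36 and 1.69 ± 0.30 (adjusted p 0.0167 and 0.0123), both from 0.07 at day 12. Gria1, a glutamate receptor subunit, differed by 1.70 ± 0.32 (adjusted p 0.0167) and Pdyn by 4.27 ± 0.86 (adjusted p 0.0273). Dlk1, a protein related to Notch ligands, differed by 7.47 ± 1.52 (adjusted p 0.0301) and Pdgfra by 4.48 ± 0.92 (adjusted p 0.0303). Rod libraries at day 12 varied widely in both, with means of 19.6 ± 31.6 and 74.0 ± 76.5 CPM (SD, n = 3). Fabp5, a fatty acid and retinoic acid carrier, differed by 1.18 ± 0.26 (adjusted p 0.0391).

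Neb, a sarcomere protein, changed by -3.04 ± 0.58 (adjusted p 0.0176) and Clec18a by -2.87 ± 0.67 (adjusted p 0.0492). Against day 35 the 1 gene was Kit, a receptor kinase, which differed by 2.12 ± 0.30 (adjusted p 0.00337). Its cone level was 37.9 ± 8.95 CPM at day 21 and 8.67 ± 2.56 CPM at day 35, with rod levels of 43.2 ± 6.82 and 42.9 ± 8.34 CPM.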

How the results depend on the processing

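Of 128 named genes that were called at day 21, 67 kept the call without each library and 61 lost it at least once; over the alternatives fitted to counts, their 2141 values held 271 past the adjusted p of 0.05 and 0 of opposite sign. Deposited TPM was not part of that tally: of all 1633 called genes, 335 had the opposite sign there and 319 showed no difference. The day 21 count of 1633 was 3699 with voom and quality weights (60.9% higher against 65.1%), and 41 and 29 with deposited TPM at a pseudocount of 1 and 0.1 (41.5% and 37.9% higher). It ran from 952 to 1485 with 1 library left out. Deposited TPM correlated with counts at only 0.239 to 0.271, so the numbers of calls on TPM say little. As examples, AY036118 on the minus strand had 0 counts and a TPM of 519000 to 678000. Gm42418, which overlaps it on the plus strand, had 846504 to 1575446 counts and a TPM of 2900 to 4770. Malat1 had at least 161348 counts and a TPM of at most 182. Gm37376, on the opposite strand, had at most 158 counts and a TPM of at least 31500. The cause of the disagreement was not tested. Removing ribosomal RNA sequence genes, mitochondrial genes and Malat1, chosen after seeing the data, gave 1657. The count against day 12 was 139 without the count filter, 325 with DESeq2 and 1503 with voom, and 6 to 739 with 1 library left out. Against day 35 it was 2, 3 and 20, and 1 to 2. The cause was not tested.

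Same-numbered cone and rod libraries deviated with correlations of 0.304, 0.201 and 0, and differently numbered ones with correlations from -0.327 to 0.272. So few libraries cannot decide whether the numbers pair the samples. With a replicate block the counts were 1702 at day 21, 85 against day 12, and 1953 in the 6 libraries alone (1247 there without it).

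Among named genes and alternatives fitted to counts, 37 values turned sign, all in uncalled genes. With voom the log2 fold change was -0.225 in Zfp703, -0.001 in Rarg, -0.072 in Ccn2, -0.104 in Igfbp4, 0.365 in Trpm1, -0.065 in Rdh5, -0.067 in Tpm1 and -0.047 in Plk2. With 1 library left out it ran from -0.117 to 0.395 in Zfp703, -0.353 to 0.368 in Stra6, -0.109 to 0.199 in Fabp5, -0.11 to 0.138 in Rarg and -0.09 to 0.248 in Ccn2. It ran from -0.031 to 0.317 in Igfbp4, -0.026 to 0.314 in Mef2d, -0.15 to 0.396 in Crb1, -0.048 to 0.23 in Six3, -0.361 to 0.035 in Pax2 and -0.196 to 0.026 in Prkca. It ran from -0.88 to 0.61 in Trpm1, -0.27 to 0.21 in Sox8, -0.037 to 0.311 in Tpm1, -0.017 to 0.309 in Ccnd1, -0.05 to 0.148 in Plk2 and -0.116 to 0.108 in Nlgn1. Genes with few counts, such as the cone opsin, could not be compared at this depth.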
